A study of Mus musculus with 6 samples.

Results

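The cell cycle genes described here were 32 mouse genes, namely 4 cyclin-dependent kinases, 8 cyclins, 7 genes of the replication machinery, 9 genes of mitosis, 3 inhibitors of the kinases and the transcription factor E2f1. They were chosen by symbol, and each was read from its brightest probe, the one with the highest mean log2 intensity over the 6 arrays. Of the 32, 30 were among the 19057 genes with a named probe, and Mki67 and Ccnb1 were not analysed here. A total of 24 passed the intensity filter described below, of 11167 genes tested in all.

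The cell cycle is driven by kinases that are active only when bound to a cyclin. D cyclins with Cdk4 or Cdk6 phosphorylate the retinoblastoma protein, which releases E2F factors to switch on the genes of DNA replication, and later waves of cyclins carry the cell through replication and mitosis. Most adult mouse heart muscle cells no longer divide, so in the adult heart these genes are usually studied in non-muscle cells, in DNA synthesis without cell division, and in the enlargement of muscle cells under load, in which D cyclins and the inhibitor p21 also take part.

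RNA from whole hearts of mice on the FvB background was hybridised to Illumina bead arrays, 1 array per sample. Transgenic mice carried JMJD2A, a histone demethylase encoded by Kdm4a in the mouse, as a heart-specific transgene (the sources used here do not name its promoter), and wild-type mice were the controls. The groups were wild-type sham (1 array), wild-type thoracic aortic constriction (TAC, 2 arrays), transgenic sham (1 array) and transgenic TAC (2 arrays), with hearts taken 3 weeks after surgery. TAC narrows the aorta and makes the left ventricle pump against a raised pressure. Every sample is labelled as 8 weeks of age, whereas the design text gives the ages in years.

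Whether an array holds 1 animal or a pool is not stated, so the p-values measure only how these samples vary, some of which may be technical. Deposited intensities ran from 30.83 to 25873, and the correlation of log2 intensity between arrays lay between 0.984 and 0.994. Of 10 heart muscle markers, 9 had a probe and all 9 passed the filter, with summed intensities of 118681 to 131308 per array. The brightest Kdm4a probe, which need not match the transgene, lay between 6.45 and 6.75 on the log2 scale on all 6 arrays, and transgenic minus wild type was 0.01 ± 0.12 (SE) with an adjusted p of 0.994 (limma, Benjamini-Hochberg). Xist, a marker of female cells, was at 10.50 in wild-type sham, 10.50 and 5.38 in the wild-type TAC arrays, 5.41 in transgenic sham, and 10.36 and 11.03 in the transgenic TAC arrays. Sex and TAC therefore cannot be told apart within the transgenic hearts. The arrays of the transgenic TAC pair lay further apart than those of the wild-type TAC pair, with an SD of the log2 difference over all probes of 0.306 against 0.2, and the main counts and the values that move most are given with and without transgenic TAC 2.

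Many of the cell cycle genes gave weak signals. The median of all probes was 5.82 on the log2 scale, an intensity of 56.3 to 56.4 per array, and 12 of the 30 genes with a probe had a mean within 0.5 of it (40.0%), against 52.7% of all genes. None lay more than 0.5 below the median, 18 lay more than 0.5 above it and 11 lay more than 1 above it. The filter was set at the median over probes with 1 gene symbol, 5.88 on the log2 scale or an intensity of 58.7. Probes of olfactory and vomeronasal receptors, genes the heart is not known to use, numbered 1504 and had their 95th percentile at 5.87, and 24 of the 30 genes were brighter than that.

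**Figure D1:**
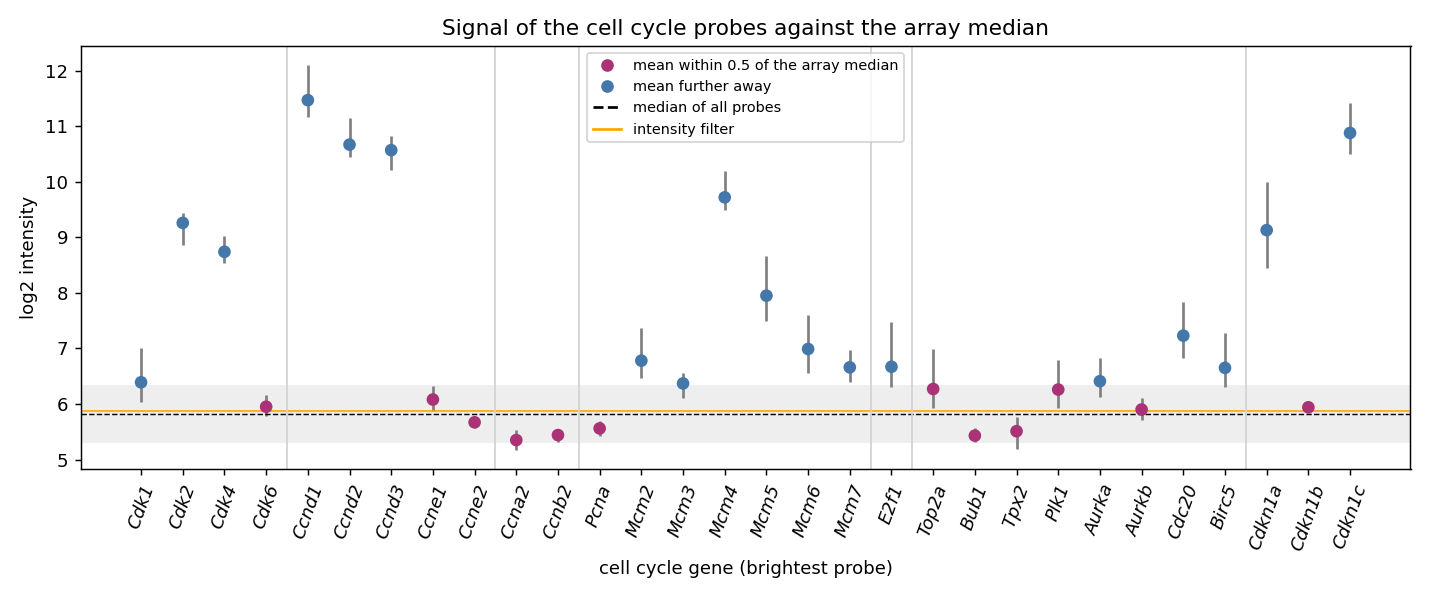
Mean log2 intensity over the 6 arrays (points) and range over the arrays (bars) for the brightest probe of the 30 cell cycle genes with a probe, grouped by role, with the grey band 0.5 to either side of the median of all probes. The means of 12 genes fall inside the band, and 6 of them lie below the orange filter line at 5.88.

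The 6 genes below the filter were Ccna2, Ccnb2 and Ccne2, cyclins of S phase, mitosis and late G1, Pcna, the sliding clamp of DNA polymerase, Bub1, a spindle checkpoint kinase, and Tpx2, a spindle assembly factor. Their values on all arrays lay between 5.17 and 5.77, and each of their means was below the array median. The range over the 6 arrays was 0.19 to 0.56, with the widest in Tpx2, and at this signal no difference could be read. Another 6 genes passed the filter while lying within 0.5 of the median: Cdk6, Ccne1, Top2a, Plk1, Aurkb and Cdkn1b. The brightest of a gene's probes says nothing about its level relative to another gene, since probes differ in how strongly they bind.

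Across the arrays, 16 of the 24 tested genes had their highest value in transgenic TAC 2, and 0 had their lowest there. Of all 11167 tested genes, 24.7% were highest in that array. Among the other probes above the filter, 17 probes of 9 of the tested cell cycle genes, 8 were highest there. Of the 20 probes at or below the filter, from 14 of the 32 genes, 5 were highest there. By role, transgenic TAC 2 was highest for 6 of 6 mitosis genes, 5 of 6 replication genes, E2f1, 2 of 4 kinases, 2 of 4 G1 cyclins and 0 of 3 inhibitors. The filter used the mean over all 6 arrays, transgenic TAC 2 included, and the mitosis gene Aurkb passed it narrowly at 5.90. Bub1 and Tpx2, mitosis genes below the filter, had their highest values in wild-type TAC 2 and transgenic TAC 2. The highest array was wild-type TAC 1 for 3 of the 24 genes (13.2% of all tested genes), transgenic TAC 1 for 3 (15.4%), wild-type sham for 1 (20.4%), transgenic sham for 1 (16.4%) and wild-type TAC 2 for 0 (9.94%). Transgenic TAC 1 was the lowest of the 6 for 10 of the 24 genes, against 22.8% of all tested genes. In transgenic TAC 2 the median deviation from a gene's mean over the 6 arrays was 0.52 for the replication genes, 0.57 for the mitosis genes and 0.03 for all tested genes.

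**Figure D2:**
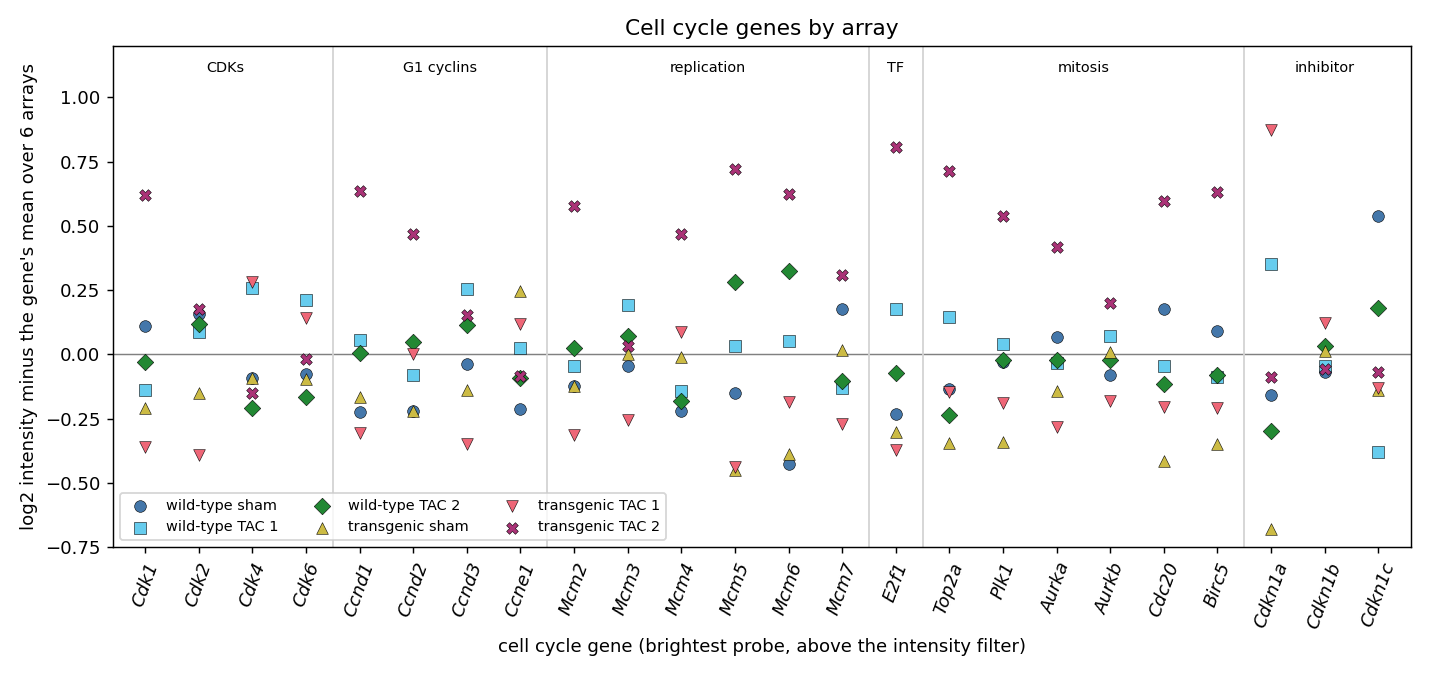
Deviation of each array from the gene's mean over the 6 arrays, in log2 units, for the 24 tested cell cycle genes grouped by role. Transgenic TAC 2 is the highest array for 16 of the genes, and its median deviation is 0.44.

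**Figure D3:**
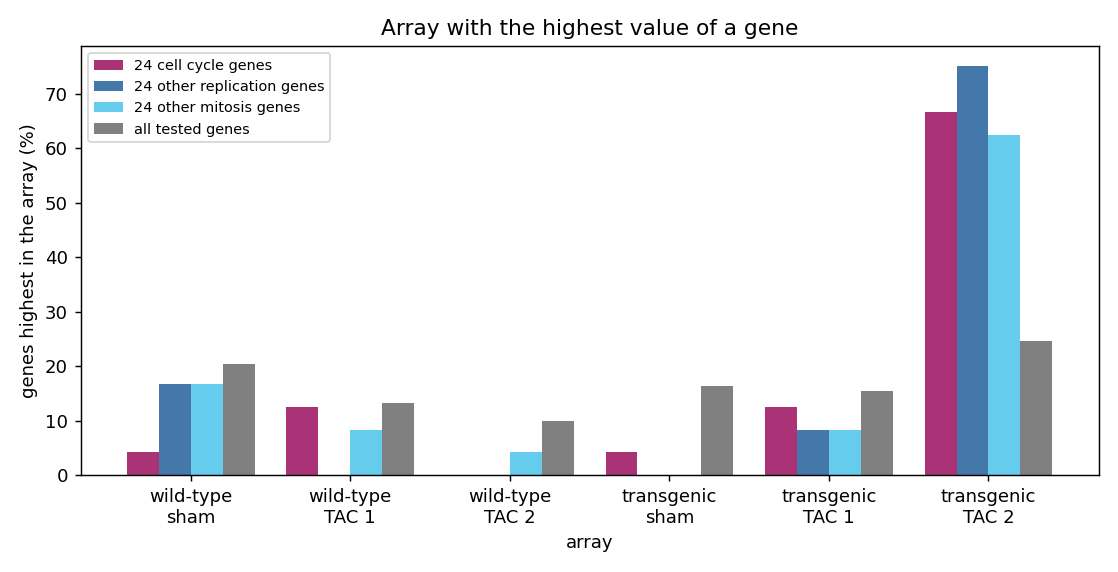
Share of genes (in percent) whose highest value falls in each of the 6 arrays, for the 24 tested cell cycle genes, for 24 further replication genes and 24 further mitosis genes described at the end, and for all 11167 tested genes. Transgenic TAC 2 holds the highest value for 16, 18 and 15 of the 24 genes in turn, against 24.7% of all tested genes.

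The gap within the transgenic TAC pair was much wider for these genes than within the wild-type pair. Transgenic TAC 2 exceeded transgenic TAC 1 by at least 0.5 for 13 of 24 genes (54.2%), against 9.05% of all tested genes. Wild-type TAC 2 exceeded wild-type TAC 1 by at least 0.5 for 1 of 24 genes (4.17%), Cdkn1c, against 1.67% of all tested genes. The median difference within the pair was 0.57 in transgenic and -0.05 in wild-type hearts for the cell cycle genes, and 0.06 and 0.02 for all tested genes. Both arrays of a pair carry the same label, so these are sizes within a group, and their cause was not tested.

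Markers of other cells also differed between the arrays. Counts are of markers above the filter, and sums are over all markers with a probe. Of 10 fibroblast markers, all with a probe, 9 passed the filter and 7 of these were highest in transgenic TAC 2. The summed intensity of the 10 was 28450 there against 17432 to 26093 in the other arrays. For endothelial markers 4 of 9 were highest there, with a sum of 23752 against 16981 to 23427, and for macrophage markers 5 of 9, with a sum of 5362 against 3661 to 6519. Of the heart muscle markers 5 of 9 were highest there, with a sum of 131308 against 118681 to 122696. The lymphocyte sum was over 8 markers, of which 4 passed the filter, and was 513 there against 443 to 494. The neutrophil and adipocyte sums below were each over 5 markers, of which 2 passed. Smooth muscle and pericyte markers did not have their highest sum there, with 2 of 7 highest and a sum of 9080 against 5649 to 21539. Of the erythroid markers 2 of 4 were highest there, with a sum of 24722 against 22592 to 24437, and of the neutrophil and adipocyte markers 0 of 2 each, with sums of 287 against 279 to 453 and 329 against 276 to 502. The part of these cells in the cell cycle values was not tested. In whole hearts, more cells of a type and more RNA per cell cannot be told apart.

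Promoter sequences of the cell cycle genes were also read, whether or not a gene was highest in transgenic TAC 2. Replication genes are textbook targets of E2F factors. Mitosis genes are textbook targets of the complexes that bind CHR elements and of the activator NF-Y, which binds CCAAT boxes. RefSeq windows of 300 bases (GRCm38.p6, 250 before and 50 after the start site) matched 24 of the 32 genes, with 27 windows. Both strands were searched for the E2F site (TTTCCCGC, TTTGGCGC, TTTCGCGC or TTTGCCGC), the CHR element (TTTGAA or TTCGAA), the CCAAT box (CCAAT) and the Sp1 box (GGGCGG). An E2F site was found in 6 of the 27 windows (22.2%), those of Mcm3, Mcm5, Mcm6, Mcm7, Cdk1 and Cdk2, against 2.26% of all 32851 windows and 3.62% of the 11525 windows of tested genes. A CHR element was found in 10 windows (37%), against 19.2% of all windows and 13.7% of those of tested genes. The CCAAT box was in 19 windows (70.4%), against 37.4% and 37%, and the Sp1 box in 23 (85.2%), against 35.7% and 60.2%. Of the tested genes with an E2F match, Mcm5, Mcm6, Mcm7, Cdk1 and Cdk2 were highest in transgenic TAC 2, and Mcm3 was not. The tested genes with a CHR match, Aurka, Cdc20, Mcm2, Mcm7, Plk1, Cdk1 and Top2a, were all highest there. Mcm3, Ccnd3 and Cdkn1b had a CCAAT match and were not. No match to the E2F letters searched was found for Mcm2 and E2f1, and none to the CHR or CCAAT letters for Birc5. Mcm2, E2f1 and Birc5 were nevertheless highest there. Whether matches go with the peak was not tested. A match of letters is a description and does not show that a factor binds.

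The stretches upstream of a pair of replication genes and a pair of mitosis genes are given 5′ to 3′ on the strand of the gene, with E2F sites and CCAAT boxes in capitals for Mcm6 (chr1:128359706-128359905, minus strand) and Mcm5 (chr8:75109309-75109467, plus strand), and CHR elements and CCAAT boxes in capitals for Cdc20 (chr4:118437344-118437543, minus strand) and Top2a (chr11:99024200-99024389, minus strand).
Mcm6: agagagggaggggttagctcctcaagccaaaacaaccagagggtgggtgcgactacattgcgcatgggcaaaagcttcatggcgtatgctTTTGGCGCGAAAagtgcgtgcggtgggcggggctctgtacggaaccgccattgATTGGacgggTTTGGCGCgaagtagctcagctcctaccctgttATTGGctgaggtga
Mcm5: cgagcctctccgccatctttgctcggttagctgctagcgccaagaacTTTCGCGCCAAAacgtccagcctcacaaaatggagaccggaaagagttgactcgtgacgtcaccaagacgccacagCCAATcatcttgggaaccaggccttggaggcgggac
Cdc20: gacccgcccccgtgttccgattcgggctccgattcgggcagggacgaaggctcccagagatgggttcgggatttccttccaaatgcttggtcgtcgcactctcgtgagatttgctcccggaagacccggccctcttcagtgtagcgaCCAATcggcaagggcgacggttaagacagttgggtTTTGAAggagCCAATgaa
Top2a: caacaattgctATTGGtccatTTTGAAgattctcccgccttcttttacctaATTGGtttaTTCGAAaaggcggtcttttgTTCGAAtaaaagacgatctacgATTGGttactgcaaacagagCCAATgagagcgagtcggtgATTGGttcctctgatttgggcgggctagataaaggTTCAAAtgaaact
In Mcm6 the E2F matches start at -110, -106 and -47 from the start site, and in Mcm5 at -153 and -149. The neighbouring matches in each overlap, so that each overlapping pair is 1 run of capitals. In Cdc20 the CHR element starts at -18, between CCAAT boxes at -53 and -8. Top2a has CHR matches at -179, -140, -120 and -23.

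Among the replication genes, the 6 tested members were Mcm2 to Mcm7, the subunits of the ring helicase that unwinds DNA at the fork. Mcm6 was at 6.56 in wild-type sham, 7.04 and 7.31 after wild-type TAC, 6.60 in transgenic sham, and 6.80 and 7.61 after transgenic TAC. All 4 TAC arrays were above both sham arrays. Another Mcm6 probe above the filter read 6.38 in wild-type sham, 6.80 and 6.73 after wild-type TAC, 6.29 in transgenic sham, and 6.34 and 7.10 after transgenic TAC, so transgenic TAC 1 lay below wild-type sham on it.

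Mcm5 was at 7.80 in wild-type sham, 7.98 and 8.23 after wild-type TAC, 7.50 in transgenic sham, and 7.51 and 8.67 after transgenic TAC. Transgenic TAC 1 stayed at the level of its sham array while transgenic TAC 2 was the highest of all. The Mcm4 values were 9.50 in wild-type sham, 9.58 and 9.54 after wild-type TAC, 9.71 in transgenic sham, and 9.81 and 10.19 after transgenic TAC. Each of the 3 transgenic arrays was above each of the 3 wild-type arrays.

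Mcm2 was at 6.66 in both sham arrays, 6.74 and 6.81 after wild-type TAC, and 6.47 and 7.36 after transgenic TAC. Only transgenic TAC 2 stood away from the other Mcm2 values. Mcm7 read 6.84 in wild-type sham, 6.53 and 6.56 after wild-type TAC, 6.68 in transgenic sham, and 6.39 and 6.97 after transgenic TAC, with the wild-type TAC pair below its sham array. Mcm3 read 6.32 in wild-type sham, 6.56 and 6.44 after wild-type TAC, 6.37 in transgenic sham, and 6.11 and 6.40 after transgenic TAC. It was the only Mcm gene whose highest value was not in transgenic TAC 2.

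E2f1, the activating transcription factor of S phase genes, was at 6.44 in wild-type sham, 6.85 and 6.60 after wild-type TAC, 6.37 in transgenic sham, and 6.30 and 7.48 after transgenic TAC. The transgenic TAC mean was 6.89 ± 0.83 (SD, n = 2) and the wild-type TAC mean 6.72 ± 0.18 (SD, n = 2). The difference of 1.17 within the transgenic TAC pair was wider than that of any other tested cell cycle gene.

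The 6 tested mitosis genes each peaked in transgenic TAC 2. Top2a, the topoisomerase that untangles sister chromatids, was at 6.14 in wild-type sham, 6.42 and 6.04 after wild-type TAC, 5.93 in transgenic sham, and 6.13 and 6.99 after transgenic TAC. Plk1, the polo-like kinase of mitotic entry and exit, was at 6.23 in wild-type sham, 6.30 and 6.24 after wild-type TAC, 5.92 in transgenic sham, and 6.07 and 6.80 after transgenic TAC. For both genes transgenic sham was the lowest array and transgenic TAC 2 the highest.

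Cdc20, an activator of the ubiquitin ligase that starts anaphase, was at 7.41 in wild-type sham, 7.19 and 7.12 after wild-type TAC, 6.82 in transgenic sham, and 7.03 and 7.83 after transgenic TAC. Of the other 3 Cdc20 probes, all above the filter, the dimmest read 6.27 in wild-type sham, 6.02 and 6.25 after wild-type TAC, 6.08 in transgenic sham, and 6.17 and 6.06 after transgenic TAC, and did not peak in transgenic TAC 2. The remaining Cdc20 probes were highest there, at 7.10 and 7.08. Birc5, the survivin subunit of the chromosomal passenger complex, was at 6.74 in wild-type sham, 6.56 and 6.57 after wild-type TAC, 6.30 in transgenic sham, and 6.44 and 7.28 after transgenic TAC. Its other probes above the filter also peaked in transgenic TAC 2, at 6.63 and 6.66.

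Aurka, the kinase of spindle poles, lay between 6.13 and 6.48 on 5 arrays and at 6.83 in transgenic TAC 2. Aurkb, the kinase of the passenger complex, stood between 5.72 and 5.97 on 5 arrays and at 6.10 in transgenic TAC 2, close to the median of all probes.

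Of the kinases, Cdk1, which drives mitosis, was at 6.50 in wild-type sham, 6.25 and 6.36 after wild-type TAC, 6.18 in transgenic sham, and 6.03 and 7.01 after transgenic TAC, so the transgenic TAC pair held both its lowest and its highest value. Cdk2, the kinase of S phase entry, was at 9.42 in wild-type sham, 9.35 and 9.38 after wild-type TAC, 9.11 in transgenic sham, and 8.87 and 9.44 after transgenic TAC. Its highest array was only 0.02 above the next. On the other Cdk2 probes, all above the filter, the highest value was in a wild-type TAC array, at 6.50, 7.29 and 8.09. Cdk4, a partner of the D cyclins, was at 8.65 in both sham arrays. It was at 9.0 and 8.53 after wild-type TAC and at 9.02 and 8.59 after transgenic TAC, so each TAC pair straddled sham. The other Cdk4 probe, also above the filter, read 7.09 in wild-type sham and 6.81 and 6.95 after wild-type TAC. It read 6.46 in transgenic sham and 6.70 and 6.76 after transgenic TAC, so neither TAC pair straddled its sham array on it. Cdk6, the other D cyclin partner, lay between 5.78 and 6.16.

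The D cyclins, which link growth signals to the cycle, were among the genes far above the filter. Ccnd2 was at 10.45 in both sham arrays, at 10.59 and 10.72 after wild-type TAC, and at 10.67 and 11.14 after transgenic TAC. All 4 TAC arrays were above both sham arrays, as they were on another Ccnd2 probe with sham at 9.70 and 9.60 and TAC between 9.73 and 10.36. On the remaining Ccnd2 probe above the filter, which read 7.08 in wild-type sham, 7.39 and 7.02 after wild-type TAC, 6.98 in transgenic sham, and 6.86 and 7.38 after transgenic TAC, they overlapped. Ccnd1 was at 11.24 in wild-type sham, 11.52 and 11.47 after wild-type TAC, 11.30 in transgenic sham, and 11.16 and 12.10 after transgenic TAC, and the other 2 probes of Ccnd1 also peaked in transgenic TAC 2, at 11.87 and 10.16.

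Ccnd3 was at 10.53 in wild-type sham, 10.82 and 10.68 after wild-type TAC, 10.43 in transgenic sham, and 10.22 and 10.72 after transgenic TAC. Both wild-type TAC arrays were above their sham array, while the transgenic TAC pair lay to either side of its own. Another Ccnd3 probe above the filter read 6.51 in wild-type sham, 6.61 and 6.27 after wild-type TAC, 6.24 in transgenic sham, and 6.55 and 6.19 after transgenic TAC, and TAC and sham overlapped on it in both genotypes. Ccne1, the cyclin of the step into S phase, was at 5.87 in wild-type sham, 6.11 and 5.99 after wild-type TAC, 6.33 in transgenic sham, and 6.20 and 6.00 after transgenic TAC. Its highest value was thus in the transgenic sham array.

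None of the 3 inhibitors had its highest value in transgenic TAC 2. Cdkn1a, which encodes the kinase inhibitor p21, was at 8.97 in wild-type sham, 9.48 and 8.83 after wild-type TAC, 8.45 in transgenic sham, and 10.00 and 9.04 after transgenic TAC. The higher array of each TAC pair was TAC 1, and both transgenic TAC arrays were above their sham array. The other 2 Cdkn1a probes had their highest values in transgenic TAC 1 as well, at 8.01 and 8.21.

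Cdkn1c, which encodes the inhibitor p57, was at 11.42 in wild-type sham, 10.50 and 11.06 after wild-type TAC, 10.74 in transgenic sham, and 10.75 and 10.81 after transgenic TAC. Wild-type sham was the highest array, and the 3 transgenic arrays lay close together. Cdkn1b, which encodes the inhibitor p27, stayed between 5.87 and 6.06, near the median of all probes.

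TAC against sham over both genotypes compared 4 arrays with 2 in a model with genotype as a covariate. None of the 24 tested cell cycle genes passed an adjusted p of 0.05 (limma, Benjamini-Hochberg over all tested genes), where 1 of 11167 genes did (0.00895%). At an unadjusted p of 0.05, 1 cell cycle gene passed, Mcm6, against 9.26% of all tested genes. Its log2 difference was 0.61 ± 0.21 (SE), or 1.52-fold, with an adjusted p of 0.44, and without transgenic TAC 2 it was 0.43 ± 0.15 with an adjusted p of 0.351. By the median over its probes, some of them at or below the filter, it was 0.19. Differences for Cdkn1a, Ccnd2 and Mcm5 were 0.63 ± 0.31, 0.33 ± 0.16 and 0.45 ± 0.28, with adjusted p-values of 0.567, 0.568 and 0.675 (limma). Without transgenic TAC 2, Mcm5 was at 0.18 and Ccnd2 at 0.21, and without transgenic TAC 1 Cdkn1a was at 0.36. Without transgenic sham Cdkn1a was at 0.19 and Ccnd2 at 0.20, and without wild-type sham Cdkn1a was at 1.08.

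Of the 24 genes, 20 were higher and 4 lower after TAC, with a median of 0.15, where 48.6% of all tested genes were higher and the median was -0.01. Without transgenic TAC 2, 14 of 24 were higher and the median was 0.06, against 46.2% and -0.02 for all tested genes. The TAC and sham arrays did not overlap for 2 genes that were higher, Ccnd2 and Mcm6, against 8.39% of all tested genes, and for 0 that were lower, against 8.16%. That share of the cell cycle genes is close to the background.

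Within each genotype, 2 TAC arrays were compared with 1 sham array, with the spread taken from the TAC pairs of both genotypes. In wild-type hearts 0 of 24 genes passed the adjusted p of 0.05 (limma), as for all tested genes (0%). At an unadjusted p of 0.05, Cdkn1c alone passed, with -0.64 ± 0.26 (adjusted p of 1.0), against 3.56% of all tested genes. Mcm6 was at 0.61 ± 0.33, Ccne1 at 0.18 ± 0.15 and Mcm7 at -0.29 ± 0.25. Without wild-type TAC 1, Cdkn1c was at -0.36, and by the median over probes Mcm6 was at 0.15 and Mcm7 at -0.09. Both TAC arrays were above the sham array for 13 genes and below it for 7, against 34.4% and 38.7% of all tested genes.

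In transgenic hearts 0 of 24 genes passed (limma; 0% of all tested genes), and at an unadjusted p of 0.05 Cdkn1a alone passed, against 4.86% of all. Its difference was 1.08 ± 0.42, or 2.11-fold, with an adjusted p of 0.991, and without transgenic TAC 2 it was 1.55 ± 0.30 with an adjusted p of 0.243. Without transgenic TAC 1 it was 0.60, and with Xist as a covariate 0.55. Top2a, Plk1 and Cdc20 were at 0.63 ± 0.32, 0.51 ± 0.27 and 0.61 ± 0.33, each with an adjusted p of 0.991, and at 0.21, 0.15 and 0.21 without transgenic TAC 2. With Xist as a covariate Top2a was at 0.13. Within a group, Xist differed mainly in the wild-type TAC pair, at 10.50 and 5.38. In the fit of the 4 groups the Xist adjustment thus rests mostly on that pair and does not separate sex from TAC.

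Of the 24 genes, 21 were higher after TAC in transgenic hearts, with a median of 0.28 against 0.01 for all tested genes, of which 50.9% were higher. Without transgenic TAC 2, 13 of 24 were higher and the median was 0.01, against 47.3% and -0.02 for all tested genes. With Xist as a covariate 16 of 24 were higher and the median was 0.14. Both TAC arrays were above the sham array for 11 genes and below it for 1, Ccne1, against 31.1% and 30% of all tested genes. Without transgenic TAC 1, the comparison was 1 array against 1, with the spread taken from the wild-type TAC pair alone, and 6 genes passed (limma), all higher: Birc5 at 0.99, Ccnd1 at 0.80, E2f1 at 1.11, Mcm5 at 1.16, Plk1 at 0.87 and Top2a at 1.06. In that fit 1.04% of all tested genes passed as higher, the adjusted p-values of the 6 genes lay between 0.0368 and 0.0452, and the lone transgenic TAC array was assumed to vary like the wild-type pair.

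**Figure D4:**
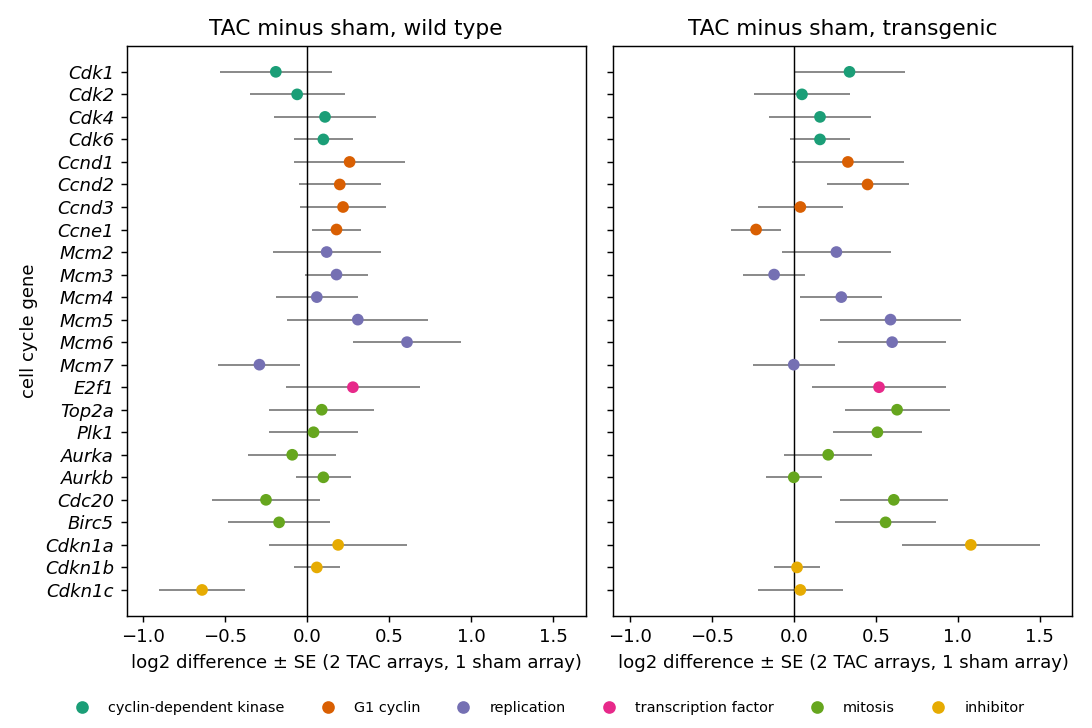
Log2 difference of TAC minus sham with its SE for the 24 tested cell cycle genes, in wild-type (left) and transgenic (right) hearts, each from 2 TAC arrays and 1 sham array and coloured by role. In transgenic hearts 21 of 24 lie above 0, with Cdkn1a furthest out at 1.08, and in wild-type hearts Cdkn1c is lowest at -0.64.

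The TAC responses of the genotypes were compared by an interaction term, transgenic minus wild type. None of the 24 genes passed at an adjusted (limma; 0% of all tested genes) or an unadjusted p of 0.05, the latter against 1.64% of all tested genes. The smallest unadjusted p-values belonged to Ccne1 at -0.41 ± 0.22, Cdkn1c at 0.68 ± 0.37, Cdc20 at 0.86 ± 0.47 and Birc5 at 0.74 ± 0.44, each with an adjusted p of 1.0. Cdc20 was at 0.46 and Birc5 at 0.32 without transgenic TAC 2, and without transgenic TAC 1 they were at 1.26 and 1.16. Cdkn1c was at 0.40 without wild-type TAC 1 and at 1.51 with Xist as a covariate, and Birc5 at 0.42 by the median over probes. The difference was above 0 for 18 of 24 genes with a median of 0.24, against 52.3% and 0.01 for all tested genes. Without transgenic TAC 2 it was above 0 for 12 of 24 with a median of 0.01, against 49% and -0.01.

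Transgenic against wild-type hearts over both surgeries compared 3 arrays with 3, with surgery as a covariate. None of the 24 genes passed (limma), where 106 of 11167 did (0.949%), and at an unadjusted p of 0.05 Mcm4 alone passed, against 11.5% of all tested genes. Mcm4 was higher by 0.37 ± 0.15, or 1.29-fold, with an adjusted p of 0.391. Its other probes, with means of 5.52 and 5.55, lay below the filter and were at -0.05 and -0.07. By the median over probes Mcm4 was below the filter and was not tested. Ccne1 was at 0.19 ± 0.12, Ccnd3 at -0.22 ± 0.15 and Cdk2 at -0.24 ± 0.17, with adjusted p-values of 0.606, 0.655 and 0.656. Without transgenic TAC 2, Mcm4 was at 0.24, Ccnd3 at -0.34 and Cdk2 at -0.41, and without transgenic TAC 1 Ccnd3 was at -0.06 and Cdk2 at -0.09. Ccne1 was at 0.05 without either sham array. Mcm4 was the 1 gene whose genotypes did not overlap, higher in transgenic hearts, against 7.59% of all tested genes, and 0 were lower without overlap, against 8.55%.

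Of the 24 genes, 17 were higher in transgenic hearts, with a median of 0.03 against -0.01 for all tested genes, of which 47.6% were higher. Without transgenic TAC 2, 7 of 24 were higher and the median was -0.19, with -0.03 for all tested genes, of which 44% were higher. The side to which most of the genes lay thus turned without that array. It also turned without wild-type TAC 2, where 9 of 24 were higher and the median was -0.01, against 48.3% and -0.01 for all tested genes.

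After TAC, 2 transgenic arrays were compared with 2 wild-type arrays, and 0 of 24 genes passed at an adjusted (limma; 0.206% of all tested genes) or an unadjusted p of 0.05, the latter against 5.76% of all. Mcm4 was at 0.44 ± 0.20 with an adjusted p of 0.898, and Mcm3, Ccnd3 and Top2a were at -0.24 ± 0.15, -0.28 ± 0.21 and 0.33 ± 0.26, each with an adjusted p of 0.999. These genes were at 0.25, -0.39, -0.53 and -0.10 without transgenic TAC 2, and without transgenic TAC 1 at 0.63, -0.09, -0.03 and 0.76. With wild-type TAC 1 left out Top2a was at 0.52, with wild-type TAC 2 left out at 0.14, and with Xist as a covariate at 0.07. The genotypes did not overlap for 1 gene higher in transgenic hearts, Mcm4, against 15.5% of all tested genes, and for 1 lower, Mcm3, against 16.8%. With transgenic TAC 2, 19 of 24 genes were higher in transgenic hearts, with a median of 0.11. Of all tested genes 49.2% were higher, with a median of -0.00. Without that array 7 of 24 were higher, with a median of -0.18, against 43.6% and -0.04 for all tested genes.

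The sham arrays, 1 per genotype, were set side by side without a test, since neither group has a replicate. Xist was at 10.50 in wild-type sham and 5.41 in transgenic sham, so sex and genotype cannot be told apart between them. Of the 24 genes, 16 were lower in transgenic sham, with a median of -0.09 against -0.02 for all tested genes, of which 52.8% were lower. A difference of at least 0.5 was seen for 3 genes, Cdkn1c (-0.68), Cdc20 (-0.59) and Cdkn1a (-0.52), against 10.4% of all tested genes.

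Other genes of the pathway were read from 3 lists that share no gene with the 32. Of 30 further genes of DNA replication and S phase 24 were tested, and of 50 of mitosis and cytokinesis 24. The last list held 43 brakes, pocket proteins, E2F factors and other regulators such as Myc, Skp2 and Ccnh, and 31 were tested. Across the 6 comparisons 0 genes of these lists passed the adjusted p of 0.05 (limma). At an unadjusted p of 0.05, the lists in that order had 2, 1 and 2 genes for TAC against sham over both genotypes, against 9.26% of all tested genes. They had 1, 1 and 4 for the genotypes over both surgeries, against 11.5%. For TAC in wild-type hearts there were 0, 0 and 0 (3.56% of all tested genes), for TAC in transgenic hearts 0, 1 and 1 (4.86%), for the genotypes after TAC 0, 2 and 3 (5.76%), and for the interaction 0, 0 and 0 (1.64%).

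As given above, 24.7% of all tested genes were highest in transgenic TAC 2. It was the highest array for 18 of 24 replication genes, 15 of 24 mitosis genes and 10 of 31 genes of the last list. It exceeded transgenic TAC 1 by at least 0.5 for 13 (54.2%), 10 (41.7%) and 4 (12.9%) of them, against 9.05% of all tested genes.

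For TAC against sham over both genotypes, the replication genes with the smallest p were Tyms, the thymidylate synthase, at 0.51 ± 0.19, Dut, which removes dUTP, at -0.28 ± 0.12, and Chaf1a, a histone chaperone subunit, at 0.31 ± 0.18. Tyms read 7.02 in wild-type sham, 7.55 and 7.47 after wild-type TAC, 7.0 in transgenic sham, and 7.20 and 7.87 after transgenic TAC, with all TAC arrays above both sham arrays and an adjusted p of 0.475 (limma). Among the mitosis genes Kif23, a kinesin of the dividing cell's midzone, was at 0.53 ± 0.18 with an adjusted p of 0.42 (limma). Kif23 read 8.51 in wild-type sham, 9.15 and 8.65 after wild-type TAC, 8.23 in transgenic sham, and 8.91 and 8.87 after transgenic TAC, so it was not highest in transgenic TAC 2. Anln, a scaffold of the contractile ring, was at 0.61 ± 0.30 and peaked in transgenic TAC 2 at 7.77.

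Between the genotypes, transgenic minus wild type over both surgeries, the brakes Gadd45b and Gadd45g, stress-induced regulators of growth arrest, were at -0.61 ± 0.13 and -0.60 ± 0.15, with adjusted p-values of 0.0784 and 0.141 (limma). Gadd45b read 7.12 in wild-type sham, 6.99 and 7.22 after wild-type TAC, 6.34 in transgenic sham, and 6.51 and 6.64 after transgenic TAC, and the genotypes did not overlap. Cdkn2b, which encodes the Cdk4 and Cdk6 inhibitor p15, was at 0.67 ± 0.15 with an adjusted p of 0.105 (limma). Its values were 6.14 in wild-type sham, 6.77 and 6.37 after wild-type TAC, 6.94 in transgenic sham, and 6.99 and 7.35 after transgenic TAC, again without overlap. Mad2l1, a spindle checkpoint protein, was at 0.42 ± 0.13 with an adjusted p of 0.217 (limma), and Gins1, a subunit of the replicative helicase, was at -0.32 ± 0.13 with an adjusted p of 0.397.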

How the data were processed

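Total RNA of 6 mouse heart samples was labelled with biotin and hybridised to Illumina arrays, per the labels' protocols. The deposited table gives the authors' processed intensity of 45281 probes on a linear scale, and neither software nor background correction nor normalization is given in the sources used here. Quantiles of the arrays differed from a common distribution by at most 0.0064 on the log2 scale. Platform annotation gave 1 gene symbol to 34885 probes, several to 18 and none to 10378. Values were raised to a floor of 32 (12 values) and log2 transformed. Each of the 19057 genes was represented by its brightest probe, and genes at or below the 50th percentile were left out. All genes were fitted with limma 3.58.1 in R 4.3.3 (lmFit, eBayes with intensity trend), with surgery plus genotype, or with the 4 groups, as the design, and Benjamini-Hochberg adjustment over 11167 genes. The scripts were tested on simulated data. Residual degrees of freedom were 3 and 2, so the number of arrays limits the precision.

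Values in every array are given for the 4 genes with the smallest unadjusted p in each comparison. They are also given for Mcm2, E2f1, Cdk1, Cdk4 and Ccnd1, which that rule did not select. The remaining genes are described by role. From each further list the genes with the smallest unadjusted p were taken, up to 3 a comparison. The genes, lists and tests were chosen with earlier results of these data known. Alternatives were the median over probes, no filter, a filter at the 75th percentile, no trend, normexp with offset 16, renewed quantile normalization, Xist as a covariate, a replicate block and leaving out each array. Leaving out both arrays of low Xist was added after seeing the data. The labels do not say whether the replicate numbers pair the arrays. The differences within the 2 TAC pairs correlated at -0.0293 over genes. This cannot settle the pairing, since the wild-type pair also differs in Xist.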

Additional observations from a re-analysis of the deposited data

How the results depend on the processing

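The count of cell cycle genes past the test (limma, adjusted p of 0.05) stayed at 0 in 83 of 84 combinations of comparison and alternative. With a replicate block it was 0 in all 6 comparisons, while the count over all tested genes went from 23 to 51 for the genotypes after TAC, from 0 to 4 for TAC in wild-type hearts and from 106 to 111 for the genotypes over both surgeries. Leaving out 1 array at a time gave 0 to 6 cell cycle genes for TAC against sham in transgenic hearts, the 6 without transgenic TAC 1, and 0 to 0 in the other comparisons. Over all tested genes, transgenic against wild type over both surgeries gave 24 to 473 genes in place of 106 when 1 array was left out, the 473 without transgenic TAC 2, and 49 with the median over probes, 44 with the stricter filter, and 54 with Xist as a covariate. Within 0.25 rather than 0.5 of the array median lay 4 rather than 12 genes, since the width is smaller, and by the median over probes 17 lay within 0.5. Of 319 values of named genes under alternatives, 315 kept direction and side of the threshold, but none had passed it to begin with, and 49 moved by over 1.5 times, 34 of them when 1 array was left out and 25 without an array of the transgenic TAC pair. With Xist as a covariate the median for TAC in transgenic hearts went from 0.28 to 0.14 and that of the interaction from 0.24 to 0.10. That adjustment rests mostly on the wild-type TAC pair and does not separate sex from TAC. Top2a and Plk1 passed in transgenic hearts without transgenic TAC 1 (1.06 and 0.87). Top2a for the genotypes after TAC ranged from -0.10, without transgenic TAC 2, to 0.76, and Ccne1 over both surgeries turned to -0.01 without both arrays of low Xist, an alternative chosen after seeing the data. For these reversals the cause was not tested. No value could be computed for TAC in a genotype without its sham array, or within transgenic hearts without the low-Xist arrays. Many of these genes lie close to the probe median, which limits what differences can be read.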
